A study of Mus musculus with 31 samples.

Results

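The genes described here are 34 genes of the unfolded protein response and of stress in the endoplasmic reticulum (ER), out of 31053 gene symbols in each count table. They were chosen by the counts of cultured T cells given dexamethasone (Dex, a synthetic glucocorticoid) against untreated ones, in which Xbp1 mRNA was higher with Dex, and the other genes were added by name for their known roles. The values of Dex against control are therefore given below as a description without a test. The question was whether the higher Xbp1 mRNA came with its usual target genes and with targets of Atf4.

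RNA was measured in 31 libraries of mouse Th17 cells, which are CD4 T cells that make IL-17, each from 2000 sorted cells. In culture, wild-type C57/B6 cells from spleen and lymph node, named Th17Inf in the labels, were left untreated (Ctrl) or given Dex, TGF-β1 (a cytokine) or both for 2 days, with 3 libraries in each of these 4 groups. In the animal experiments, naive T cells carrying the 2D2 receptor were made into cells named Th17Hom, moved into Rag1 KO mice to induce experimental autoimmune encephalomyelitis (EAE), and sorted as 2D2+ cells from the central nervous system (CNS) at the peak of disease. They were Cyp11a1 WT (4 libraries) or cKO (6 libraries), and GR WT (5 libraries) or cKO (4 libraries, labelled KO), all on C57/B6. Cyp11a1 encodes the enzyme that starts steroid synthesis, GR is the glucocorticoid receptor (gene Nr3c1), and cKO is a conditional knockout whose Cre driver is not given in the sources used here. Rag1 KO hosts make no mature T or B cells of their own but keep their myeloid cells.

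The unfolded protein response is the set of programmes that a cell starts when unfolded proteins collect in the ER. The sensor Ire1α, encoded by Ern1, cuts a short stretch out of Xbp1 mRNA, and the spliced mRNA encodes an active transcription factor whose targets widen the folding, degradation and secretory machinery. The sensor Perk, encoded by Eif2ak3, phosphorylates eIF2α and so favours translation of Atf4, and the sensor Atf6 is cut in the Golgi and then induces chaperones. Xbp1 is best known in cells that secrete much protein, such as plasma cells.

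The stretch that Ire1α removes is shown because a count per gene cannot separate the forms before and after splicing. It lies in exon 4 of Xbp1 (gene at chr11:5520659-5525893, plus strand, GRCm38, GENCODE M21), and its 26 bases at chr11:5524279-5524304 are in capitals within the window chr11:5524259-5524324.
Xbp1 exon 4: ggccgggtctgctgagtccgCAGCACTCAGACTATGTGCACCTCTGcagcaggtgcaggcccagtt
A removal of 26 bases leaves 2 over whole codons and shifts the reading frame. The counts per gene add both forms, so every Xbp1 value below is total Xbp1 mRNA and says nothing of the spliced share.

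Promoters of 250 bases before the start (RefSeq, GRCm38.p6) were matched for 30 of the 34 genes and not for Hyou1, Manf, Sec61a1 and Atf6. The ER stress element, which is CCAAT, 9 bases of any kind and CCACG on either strand, binds Atf6 and Xbp1 with the factor NF-Y. It stood in 8 of 30 member promoters (26.7%) and in 33 of 27025 promoters (0.122%). The 8 were those of Hspa5, Hsp90b1, Calr, Canx, Pdia6, Dnajc3, Creld2 and Syvn1. The windows below are those of 4 of these genes whose values are described further on, with the element in capitals, and of Asns with the core TGATGNAA of the amino acid response element, a binding site of Atf4, in capitals. They lie at chr2:34772015-34772053 (Hspa5, plus strand), chr10:86705628-86705666 (Hsp90b1, minus strand), chr12:17266481-17266519 (Pdia6, plus strand), chr19:6046522-6046560 (Syvn1, plus strand) and chr6:7693215-7693242 (Asns, minus strand), each written along its gene's own strand.
Hspa5: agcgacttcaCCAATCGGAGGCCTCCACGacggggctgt
Hsp90b1: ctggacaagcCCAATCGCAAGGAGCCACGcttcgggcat
Pdia6: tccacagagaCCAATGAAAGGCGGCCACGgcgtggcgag
Syvn1: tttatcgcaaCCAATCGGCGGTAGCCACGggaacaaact
Asns: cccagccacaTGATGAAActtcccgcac
TGATGNAA, searched on both strands, stood in the promoters of Herpud1, Asns and Chac1, 3 of 30 (10%) against 3.53% of all promoters. CCACG, which is also the end of the ER stress element, stood in 21 of 30 (70%) against 28.2%. The letters TGACGTGG of the unfolded protein response element stood in 0 of 30 against 0.503%, and the glucocorticoid response element, matched as the full palindrome, in 0 of 30 against 0.0037%. None of these motifs was in the 250 bases before Xbp1. A match of letters is a description and not a measured binding site.

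Total counts per library were 2769203 to 4291149 in vitro, 4322688 to 5118543 in the Cyp11a1 table and 3552871 to 5623305 in the GR table, and all 34 genes passed the filter on low counts in each table. Levels are given in CPM, which are counts scaled to a common library size after TMM normalisation. The labels do not state separate cultures or recipients, so each p measures the spread among these libraries. T cell markers were present throughout, with a sum over 8 genes of 2004.5 to 2163.7 CPM in vitro and 1557.5 to 3139.5 CPM in the CNS. The targeted gene Cyp11a1 had 0 counts in all 4 WT libraries, which allows up to 0.586 to 0.694 CPM at a floor of 3 counts in that table, and 4 counts in 1 cKO library, so it checks no label. Nr3c1 was at 13.0 to 18.9 CPM in GR WT and 6.76 to 10.2 CPM in GR cKO, without overlap. The protocol keeps no strand, and exons of 10 of the 34 genes overlap a gene on the opposite strand, among them Ddit3 with Mars, Pdia6 with Atp6v1c2, Hsp90b1 with 1810014B01Rik, Syvn1 with Mrpl49 and Ppp1r15a with Tulp2, while no exon of Xbp1 or Atf4 does. In bulk RNA, fewer cells expressing a gene and less of its RNA per cell cannot be told apart.

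Levels of different genes were compared per length, in TPM, which are counts scaled by exon length and library total. TPM were not TMM-scaled, so they also move with the make-up of a library. Repeat-like predicted genes (named Gm and a number, at least 0.2% of counts in a library) took 11.7% to 30.8% of counts in culture. They took 15.4% to 39% in the Cyp11a1 table and 16.3% to 55.7% in the GR table. In the cultured cells the mean over the 12 libraries was 264.9 TPM (range 201.2 to 319.3) for P4hb, a protein disulfide isomerase. Xbp1 was at 82.8 ± 3.73 TPM in Ctrl, 121.5 ± 8.76 with Dex, 81.8 ± 5.42 with TGF-β1 and 120.2 ± 17.7 with both (SD, n = 3 each). Of the libraries given both agents, replicate 2 had the highest Xbp1 in CPM (276.0) and the lowest in TPM (105.9). Replicate 3 had the lowest in CPM (263.8) and the highest in TPM (140), so these SDs are not of Xbp1 alone. The place of Xbp1 among the members depended on the group: in Ctrl it was level with Hsp90b1 (82.1 ± 6.28 TPM) and Atf4 (77.7 ± 3.85 TPM), within their spread. The sensors stood at the bottom, with Eif2ak3 at 1.35 TPM, Atf6 at 0.772 TPM and Ern1 at 0.746 TPM, and their ranges overlapped. In the sorted CNS cells Xbp1 had a mean of 41.0 TPM in the Cyp11a1 table (range 27.6 to 52.6) and 37.9 TPM in the GR table (range 24.0 to 53.3). The chaperone Hspa5 had a mean of 61.3 TPM in culture and 110.6 and 94.2 TPM in the 2 CNS tables. The tables were normalised separately and culture and CNS differ in more than location, so these levels are set side by side without a test.

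**Figure D1:**
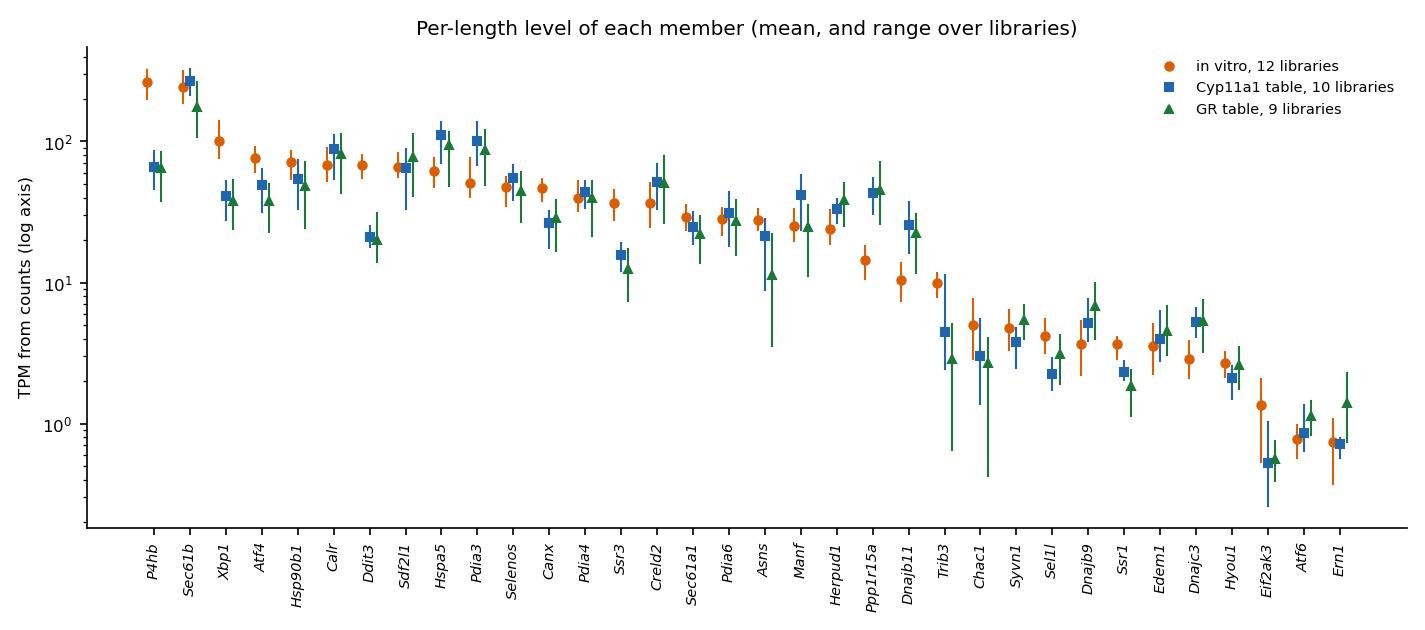
Level of each of the 34 genes per length, in TPM on a log axis, ordered by the mean over all 12 cultured libraries, in 6 of which Dex was present. Symbols are means over all libraries of a table and lines run from the lowest to the highest library. Eif2ak3, Atf6 and Ern1 are the last on the right, at 1.35, 0.772 and 0.746 TPM in culture.

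In the presence of TGF-β1, total Xbp1 mRNA was higher with Dex. Its level was 178.7, 187.0 and 184.6 CPM in the TGF-β1 libraries and 268.3, 276.0 and 263.8 CPM in the libraries given both. The groups did not overlap, and the difference was larger than their spread, with SDs of 4.30 and 6.14 CPM. In TGF-β1 plus Dex against TGF-β1, which shares no library with the comparison that chose the list, Xbp1 rose by 0.55 ± 0.05 (SE) in log2 (1.47-fold, 95% interval of the log2 value 0.45 to 0.66, adjusted p = 0.000235, edgeR quasi-likelihood test with Benjamini-Hochberg adjustment). It was 1 of 55 genes called among 10332 tested (0.532%) and ranked 3 of 10332 by p, but 24 of the 32 genes called higher by fold. Of the 34 members 1 was called, Xbp1 itself. The SE and p come from 1 fit of all 12 libraries, so their variance draws in part on the Ctrl and Dex libraries that chose Xbp1. Over 9 other settings of edgeR, DESeq2 and limma voom, among them a fit of only these 2 groups, the largest adjusted p of Xbp1 was 0.0127.

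Without TGF-β1, the comparison that chose the list, Xbp1 was at 179.5, 182.3 and 177.9 CPM in Ctrl and at 271.9, 264.1 and 258.2 CPM with Dex. The estimate was 0.56 ± 0.05 in log2, again 1.47-fold. TGF-β1 alone left Xbp1 at 0.03 ± 0.05 in log2 against Ctrl (95% interval -0.08 to 0.14), and both agents together gave 0.58 ± 0.05. These 2 comparisons use the Ctrl libraries whose Xbp1 values chose the list, so they are given as a description. The difference between the Dex effects with and without TGF-β1 was -0.00 ± 0.07 for Xbp1, with a 95% interval of -0.16 to 0.15. This value contains the comparison that chose the list and is likewise a description.

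**Figure D2:**
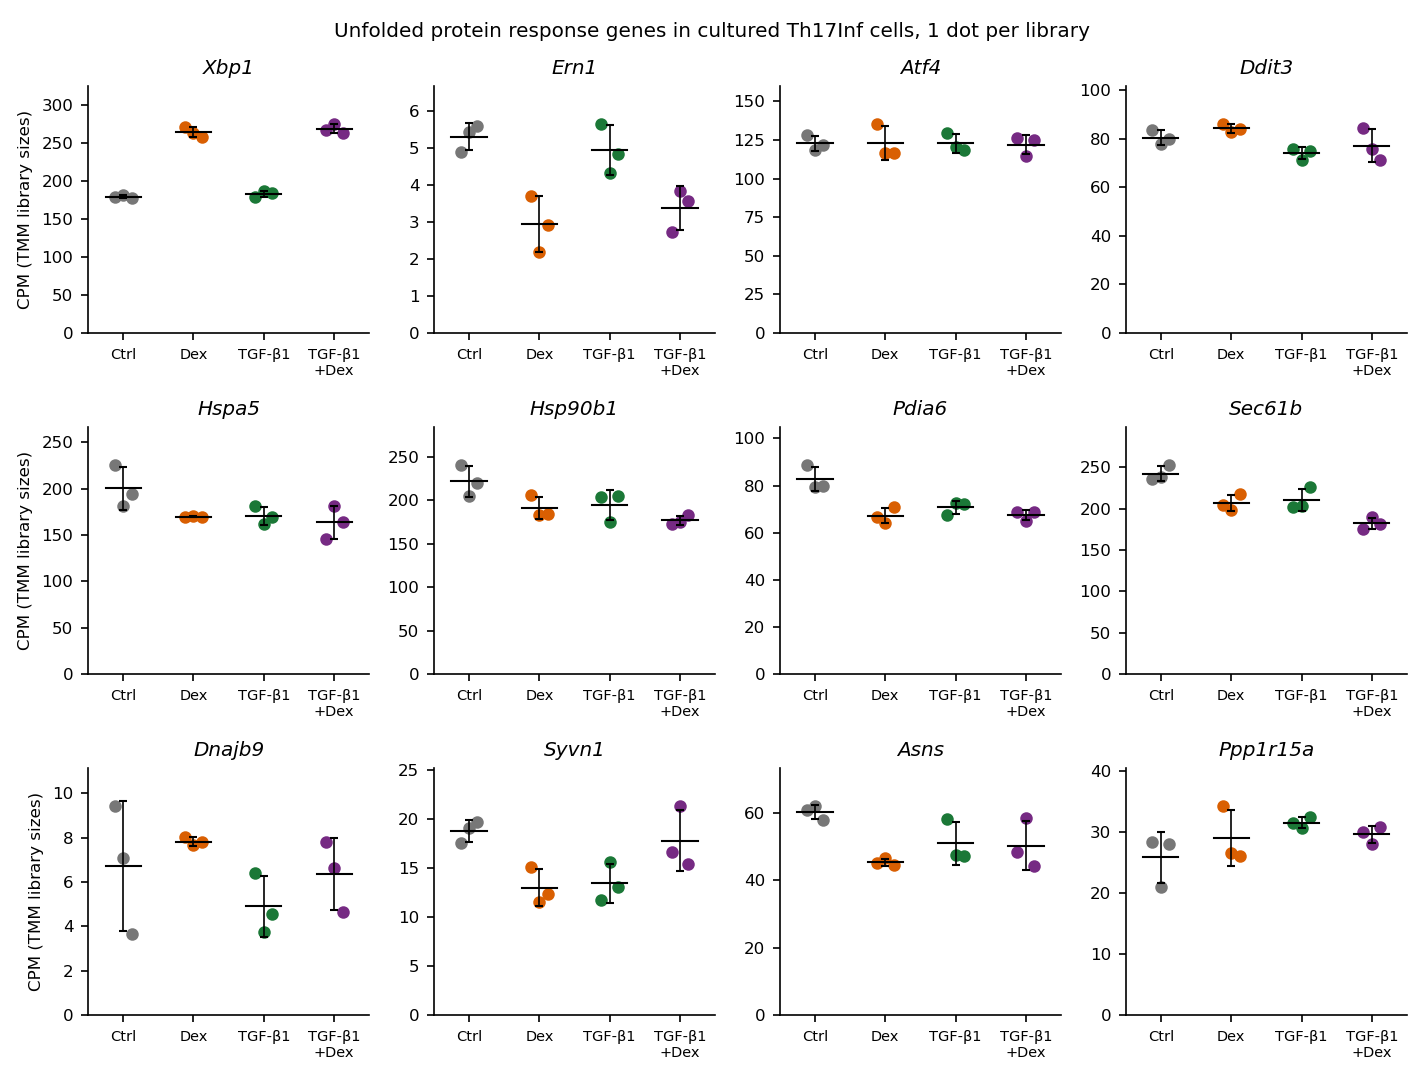
Level of 12 of the genes in each cultured library, in CPM on axes that start at 0. Dots are libraries, horizontal lines are group means and error bars are SDs over 3 libraries. Xbp1 lies at 258.2 to 276.0 CPM in the 6 libraries with Dex and at 177.9 to 187.0 CPM in the 6 without it, while Atf4, Ddit3 and Hspa5 overlap between TGF-β1 and TGF-β1 plus Dex.

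Among the other sensors and transcription factors none passed the test in TGF-β1 plus Dex against TGF-β1. Ern1, the sensor that splices Xbp1 mRNA, was at 5.67, 4.34 and 4.84 CPM with TGF-β1 and at 2.72, 3.85 and 3.58 CPM with both agents, from 8 to 23 counts per library over the 12 libraries. These groups did not overlap and Ern1 was the lower with Dex, yet the estimate of -0.53 ± 0.26 was not called (95% interval -1.09 to 0.03, adjusted p = 0.65). In the comparison that chose the list it was at 4.90, 5.45 and 5.60 CPM in Ctrl and 3.70, 2.19 and 2.93 CPM with Dex (-0.86 ± 0.26). Ern1 was lower in every library with Dex than in any library without it, the opposite order to Xbp1. This order includes the libraries that chose the list, and Ern1 was picked after its values were seen. How many of all genes show such an order was not counted, so it is a description. Atf6 was at 4.16, 4.34 and 3.63 CPM with TGF-β1 and 4.76, 4.55 and 5.26 CPM with both, without overlap and not called (0.27 ± 0.22, adjusted p = 0.857). Eif2ak3 scattered between 2.18 and 8.75 CPM over the 12 libraries, and its interval of -1.06 to 0.80 in the same comparison is too wide to read.

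Atf4 stayed within 114.7 to 135.5 CPM over all 12 libraries. It was at 129.6, 120.3 and 118.3 CPM with TGF-β1 and at 126.5, 114.7 and 124.7 CPM with both, overlapping groups with a difference of -0.01 ± 0.08 (95% interval -0.17 to 0.16, adjusted p = 1). Atf4 is controlled largely at translation, which mRNA counts do not measure. Ddit3, the factor known as Chop that Atf4 induces, was at 75.6, 71.1 and 75.1 CPM with TGF-β1 and at 84.3, 75.6 and 71.2 CPM with both (0.06 ± 0.08, 95% interval -0.12 to 0.23, adjusted p = 0.937). These groups overlapped, as did those of Dex and Ctrl for Atf4 (116.7 to 135.5 against 118.3 to 128.1 CPM).

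The 4 Atf4 and Ddit3 targets among the members had estimates from -0.09 to -0.01 in TGF-β1 plus Dex against TGF-β1, and 0 of 4 passed. Asns, asparagine synthetase, was at 58.2, 47.4 and 47.2 CPM with TGF-β1 and 48.3, 58.4 and 44.2 CPM with both (-0.02 ± 0.12, adjusted p = 0.992). Trib3, a pseudokinase that damps Atf4 signalling, gave -0.01 ± 0.17, and Chac1, which degrades glutathione, gave -0.05 ± 0.32 at 10 to 30 counts per library. Ppp1r15a, the Gadd34 subunit that reverses eIF2α phosphorylation, gave -0.09 ± 0.14. In Dex against control, Asns was at 60.9, 62.1 and 57.9 CPM in Ctrl and at 45.1, 46.5 and 44.6 CPM with Dex, lower with Dex (-0.41 ± 0.11). That comparison chose the list and Asns was picked after its values were seen, so these values are a description.

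Of the chaperones and lectins of the ER, 0 of 5 passed in TGF-β1 plus Dex against TGF-β1. Hspa5, the BiP chaperone that is the classical target of Atf6 and Xbp1, was at 180.9, 161.9 and 169.8 CPM with TGF-β1 and 145.9, 181.2 and 164.0 CPM with both. The groups overlapped, and the 95% interval of the difference, -0.26 to 0.14, lay below the estimate for Xbp1 (-0.06 ± 0.09, adjusted p = 0.926). Hsp90b1, the ER form of Hsp90, gave -0.14 ± 0.08, the lectin chaperones Calr and Canx gave -0.03 ± 0.09 and -0.05 ± 0.06, and Hyou1 gave 0.18 ± 0.18. The disulfide isomerases had estimates from -0.13 (Pdia4) to 0.20 ± 0.10 (Pdia3), and 0 of 4 passed.

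The J proteins and co-chaperones had 0 of 6 called. Dnajb9, or ERdj4, a target that depends strongly on Xbp1, had 13 to 28 counts per library and was at 6.42, 3.76 and 4.54 CPM with TGF-β1 and 7.82, 6.65 and 4.63 CPM with both. These groups overlapped, and the interval of -0.37 to 1.10 (estimate 0.36 ± 0.34, adjusted p = 0.843) held both no change and the size seen for Xbp1, so a rise of that size in Dnajb9 was not excluded. Sdf2l1 gave 0.01 ± 0.12, and Creld2 -0.20 ± 0.15. In ER-associated degradation, which extracts misfolded proteins for the proteasome, 0 of 5 passed. The ubiquitin ligase gene Syvn1, or Hrd1, was at 11.7, 15.6 and 13.0 CPM with TGF-β1 and 16.7, 21.3 and 15.4 CPM with both, which overlapped (0.38 ± 0.17, adjusted p = 0.499). Without TGF-β1 the order was the other way, with 17.5, 19.1 and 19.7 CPM in Ctrl and 15.1, 11.5 and 12.4 CPM with Dex. The interaction of Syvn1, a gene picked after its values were seen, was 0.92 ± 0.24 (unadjusted 95% interval 0.39 to 1.45) and was not called. By edgeR 0 of 10332 genes were called in the interaction, with a smallest adjusted p of 0.0978. The interaction contains the comparison that chose the list and is given as a description.

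Of the translocon genes, which bring proteins into the ER, 0 of 4 passed and all 4 estimates were negative. Sec61b, a subunit of the channel, was at 201.7, 203.5 and 226.1 CPM with TGF-β1 and 175.8, 189.9 and 181.1 CPM with both. The groups did not overlap, with less mRNA where Dex was present, but the difference was not called (-0.21 ± 0.06, adjusted p = 0.26).

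**Figure D3:**
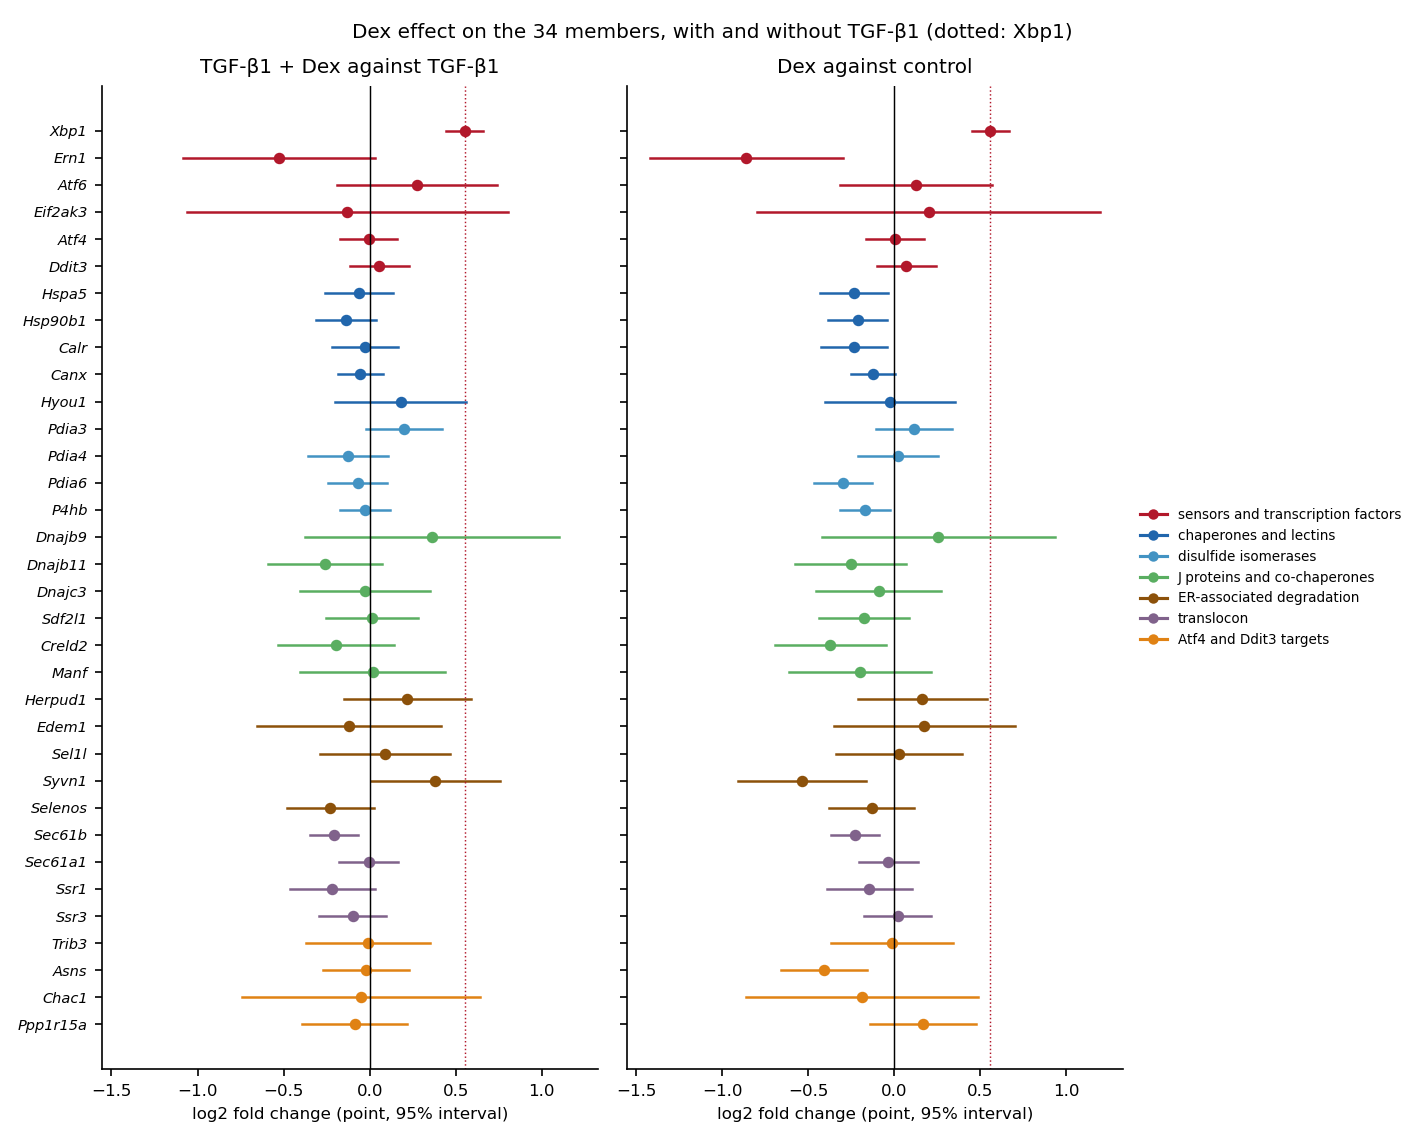
Log2 fold change of each of the 34 genes with Dex, in the presence of TGF-β1 (left) and without it (right, the comparison that chose the list). Points are edgeR estimates, lines are 95% intervals and the dotted line is the estimate for Xbp1. Xbp1 stands at 0.55 and 0.56, and the estimates of the other 33 genes lie below it in both panels. On the right this follows in part from the choice of Xbp1 for its rise there. In the left comparison the estimates of all 106 tested genes of the wider pathway lists (not drawn) lay below Xbp1 too.

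Set side by side, the other 33 genes gave no call in TGF-β1 plus Dex against TGF-β1 by edgeR, DESeq2 or limma voom, where edgeR called 0.532% of all genes and no call among 33 genes is near that background. Their median was -0.03, with 10 estimates above 0 and 23 below, against a median of -0.00 over all 10332 genes, and 2 had an unadjusted p below 0.05, beside 1018 of the 10332. The 95% interval ended below the estimate for Xbp1 in 26 of the 33. The 7 whose interval reached it were Atf6, Eif2ak3, Hyou1, Dnajb9, Herpud1, Syvn1 and Chac1, for which the interval does not exclude a rise as large as that of Xbp1. This count was not made over all genes, so it has no background beside it. The median upper end of the 33 intervals was 0.217, so rises smaller than that of Xbp1 were not excluded. Groups did not overlap for 1 of the 33 in the higher direction (Atf6) and 3 in the lower (Ern1, Sec61b, Selenos), beside 7.12% and 8.03% of all genes. In Dex against control 1 of the 34 was called, Xbp1 itself, beside 1.83% of all genes. That comparison chose the list, so nothing is read from the count.

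A wider list of genes of the same pathways, named for their roles, held no call either. Of 106 tested genes of the secretory route, ER folding, ER-associated degradation, Atf4 targets and the eIF2α pathway, 0 passed in TGF-β1 plus Dex against TGF-β1 (0.532% of all genes called), with 36 estimates above 0, 70 below and a median of -0.04. By edgeR, 13 of the 106 had an unadjusted p below 0.05, beside 1018 of all 10332 genes. The 95% interval ended below the estimate for Xbp1 in 94 of the 106, a count that was not made over all genes. The 35 secretory targets of Xbp1 had a median of -0.09 with 7 estimates above 0, and the 33 other Atf4 targets had a median of -0.04 with 8 above 0. Cytosolic heat shock genes, a separate stress programme, had 0 of 13 called. Genes known to respond to glucocorticoids, taken as a check of the treatment, had 2 of 7 called: Tsc22d3 (Gilz) at 1.15 ± 0.12 (adjusted p = 0.000515) and Sgk1 at 1.23 ± 0.24 (adjusted p = 0.0449). All 7 estimates of that list were above 0.

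B and plasma cell markers are given beside Xbp1 because plasma cells hold much of it. Their sum over 10 genes was 46.5 to 49.3 CPM in Ctrl, 29.6 to 35.8 with Dex, 43.1 to 51.7 with TGF-β1 and 34.5 to 45.5 with both, and 4, 4, 6 and 4 of the 10 were at 0 in every library of those groups. The Dex libraries lay below the Ctrl ones, and TGF-β1 and both agents overlapped. Of the plasma cell markers, Tnfrsf17 was at 0 in every cultured library, while Sdc1 was at 13.9 ± 1.88 CPM with TGF-β1 and 7.99 ± 1.45 with both (-0.80 ± 0.20, adjusted p = 0.126, edgeR). Ighm was at 29.4 ± 3.82 and 28.8 ± 7.39 CPM in the same groups.

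The sum over 19 myeloid markers was 89.6 to 107.9 CPM in Ctrl, 99.5 to 112.3 with Dex, 95.6 to 109.6 with TGF-β1 and 109.2 to 133.6 with both, so the libraries given both agents reached highest and touched the TGF-β1 range. Of the 19, 11, 9, 10 and 10 were at 0 in every library of those groups, among them Csf1r, C1qa, Adgre1, Itgam and Fcgr1 in all 12 libraries. Ctss, a protease gene of myeloid cells, was at 36.1 ± 3.64 CPM with TGF-β1 and 49.7 ± 3.94 with both (0.45 ± 0.11, adjusted p = 0.126, edgeR). Th17 markers summed to 37.3 to 61.2 CPM in Ctrl, 48.4 to 103.1 with Dex, 109.9 to 214.9 with TGF-β1 and 163.0 to 210.3 with both, and 0 of the 5 were at 0 in any group. Among them Ccr6, a chemokine receptor, was at 56.6 ± 9.24 CPM with TGF-β1 and 89.8 ± 8.42 with both (0.67 ± 0.17, adjusted p = 0.139, edgeR). The part of these cell type markers in the Xbp1 values was not tested.

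Measured from untreated cells, both agents together gave lower mRNA of Sec61b, and of Hsp90b1 and Pdia6 less firmly. In TGF-β1 plus Dex against Ctrl, where 6.25% of all genes were called, 4 of the 34 members were called: Xbp1 higher and 3 lower, beside 3.14% of all genes called lower. The call of Xbp1 rests on the Ctrl libraries that chose it and is a description. Sec61b was at 236.5, 238.2 and 253.4 CPM in Ctrl and at 175.8, 189.9 and 181.1 CPM with both, without overlap, and fell by 0.41 ± 0.06 in log2 (adjusted p = 0.00159). Hsp90b1 was at 240.7, 205.0 and 219.3 CPM in Ctrl and at 172.1, 175.2 and 182.8 CPM with both, and it fell by 0.32 ± 0.08 (adjusted p = 0.0298). Pdia6, a disulfide isomerase, was at 88.9, 79.6 and 79.9 CPM in Ctrl and at 68.7, 65.1 and 68.6 CPM with both, and it fell by 0.29 ± 0.08 (adjusted p = 0.0445). Pdia6 lost its call whichever of the 12 libraries was left out (adjusted p 0.0518 to 0.177) and in 17 of 21 alternatives in all, Hsp90b1 in 5 of 21 and Sec61b in 0. The number of members called was 2, with Sec61b and Xbp1 left, without Ctrl replicate 3, without TGF-β1 plus Dex replicate 1 or without its replicate 3. Groups did not overlap in the lower direction for 10 of the other 33 and in the higher for 1, Pdia3 (background 12.1% and 11.5%).

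The wider lists held lower calls of their own in that comparison, named here after their values were seen. Of the 106 genes, 10 were lower and 0 higher (9.43% called). Among the Atf4 targets these were Cth at -1.01 ± 0.21 (adjusted p = 0.0125) and Mthfd2 at -0.61 ± 0.11 (adjusted p = 0.00309), with Psat1, Phgdh and Yars. They act in cysteine, folate and serine metabolism and in the charging of a tRNA. In translocation and glycosylation they were Ssr2, Spcs3, Rpn1 and Stt3a, from -0.56 to -0.34, and in folding the oxidase gene Ero1l at -0.52 ± 0.09 (adjusted p = 0.00282). TGF-β1 alone against Ctrl, which shares those Ctrl libraries and had 3.29% of all genes called, held 0 of 34 members called by edgeR, DESeq2 or limma voom. By edgeR, 7 members had an unadjusted p below 0.05, beside 1547 of all 10332 genes, and 3 of the 106 were called lower (Psat1, Phgdh, Ssr2). Groups did not overlap there for 9 of the other 33 members in the lower direction and 2 in the higher (background 10.4% and 10.5%). TGF-β1 plus Dex against Dex, which shares the Dex libraries, had 2.62% of all genes called and 0 of 34 members by the same tools. By edgeR, 3 members had an unadjusted p below 0.05 in it, beside 1338 of all 10332 genes. For Sec61b the levels were 236.5 to 253.4 CPM in Ctrl, 198.4 to 218.2 with Dex, 201.7 to 226.1 with TGF-β1 and 175.8 to 189.9 with both, so each agent alone stood between Ctrl and both, without overlap with either.

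In the CNS, Xbp1 did not differ beyond its spread between Cyp11a1 genotypes. It was at 82.7, 114.6, 112.4 and 84.8 CPM in the 4 WT libraries and at 102.1 to 120.2 CPM (median 106.9) in the 6 cKO libraries. The cKO libraries lay between and above the WT ones, and the groups overlapped (0.14 ± 0.10, 95% interval -0.08 to 0.37, adjusted p = 0.796). Of the 34 members 0 were called by edgeR, DESeq2 or limma voom, where edgeR called 0.178% of all genes, and 3 had an unadjusted p below 0.05, beside 810 of all 10125 genes. These were Calr (0.21 ± 0.09), Hspa5 (0.21 ± 0.09) and P4hb (0.19 ± 0.09), and the smallest adjusted p among the members was that of Calr, 0.586. Estimates were above 0 for 27 of 34, with a median of 0.14 against 0.00 over all genes.

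The members varied together among the WT libraries. Replicates 1 and 4 were the lowest 2 of the 4 for 19 of 34 members, against 24.3% of all genes tested (55.9% of the members), a count made after their values were seen. Hsp90b1, for one, was at 114.5 and 135.4 CPM in replicates 1 and 4 and at 190.1 and 196.6 CPM in replicates 2 and 3. Manf, a secreted ER stress protein, was at 90.1 and 78.7 against 131.9 and 134.3 CPM, and Asns at 30.5 and 23.1 against 50.5 and 49.8 CPM. Repeat-like predicted genes took 29.7% and 39% of the counts in those replicates, 25.6% and 16.9% in the other WT libraries and 15.4% to 31.8% in cKO. With those genes left out of the fit the median of the 33 genes other than Xbp1 was 0.14 and Xbp1 was at 0.14, as with them in. Leaving out those genes cannot show whether libraries rich in them differ in other ways, which was not tested. Without WT replicates 1 and 4, left out after seeing the data, the median of the 33 genes other than Xbp1 was 0.01 and Xbp1 was at -0.06. Those replicates were picked for their low member values, so this fall follows from the choice and nothing is read from it. The sum of 19 myeloid markers was 532.7 to 611.2 CPM in WT and 717.8 to 1130 CPM in cKO, without overlap, and 3 of 17 tested markers were called higher. Its part in the members' values was not tested beyond a fit with that sum as a covariate, where the median was 0.23 and 0 members were called. The Th17 marker sum was 180.7 to 267.2 CPM in WT and 86.0 to 181.2 CPM in cKO, with little overlap, and its part in the members' values was not tested. Cytosolic heat shock genes had estimates above 0 for 14 of 14, with a median of 0.26 and 0 called.

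**Figure D4:**
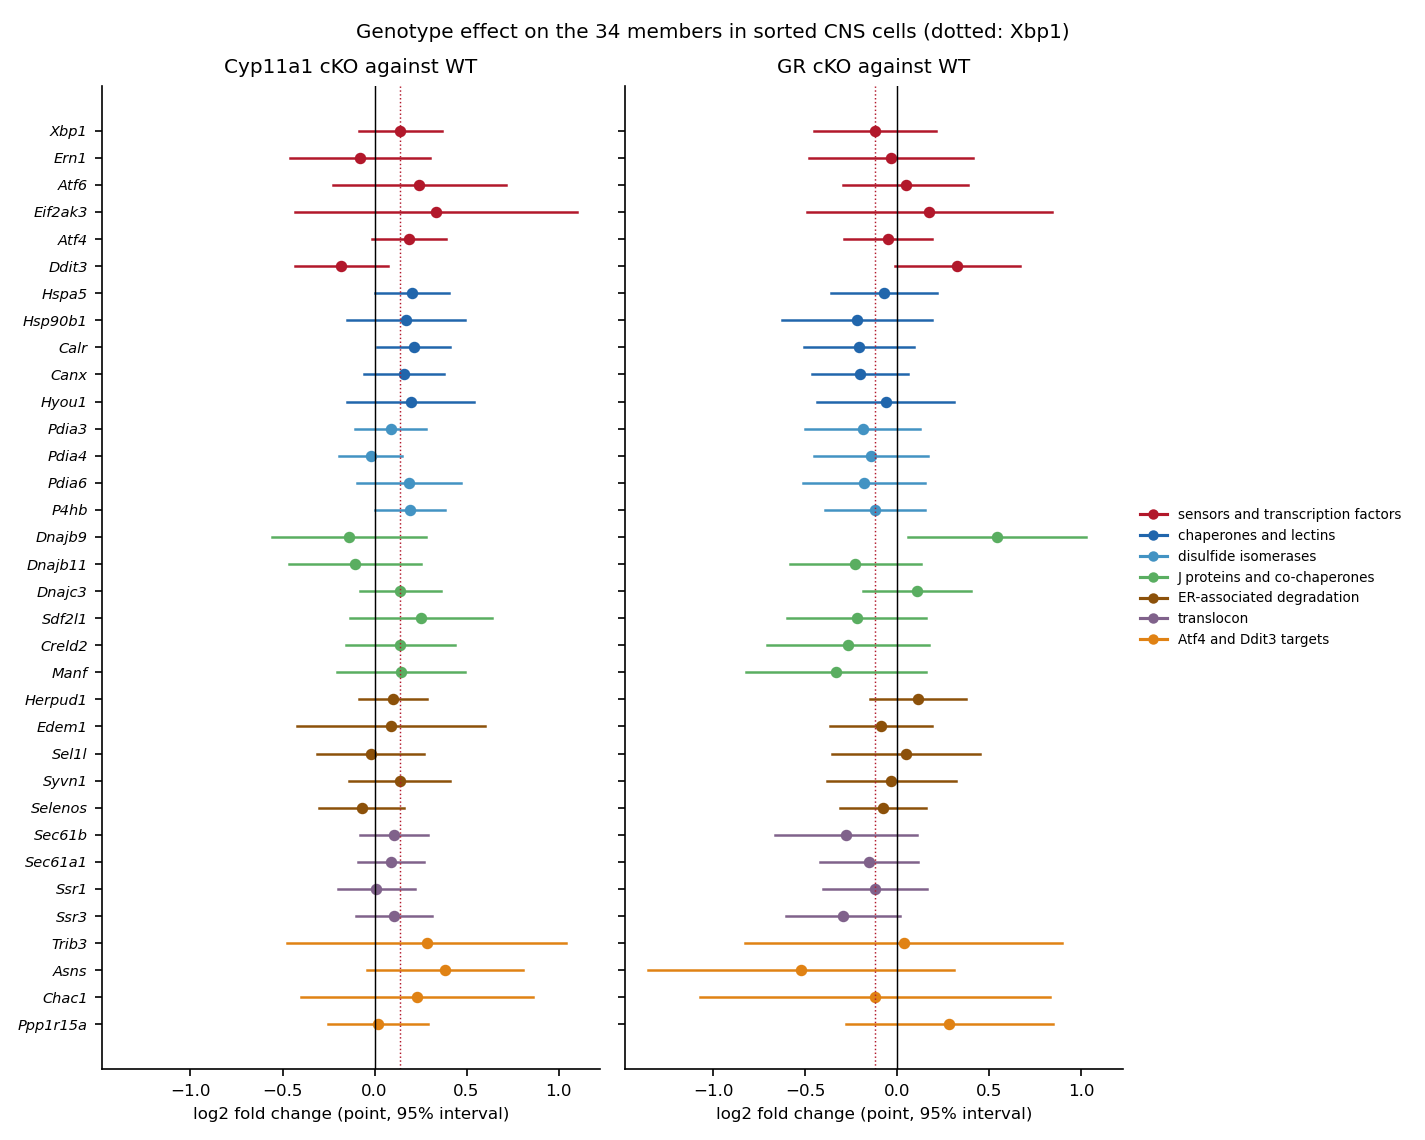
Log2 fold change of each of the 34 genes in cKO against WT, for Cyp11a1 (left, 4 WT and 6 cKO libraries) and GR (right, 5 WT and 4 cKO libraries). Points are edgeR estimates, lines are 95% intervals and the dotted line is the estimate for Xbp1. The medians are 0.14 and -0.12, and 0 of 34 genes were called in either panel.

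Between GR genotypes Xbp1 was at 70.9, 98.7, 114.4, 111.1 and 86.9 CPM in WT and at 89.2, 99.9, 83.1 and 82.5 CPM in cKO. The cKO libraries lay inside the WT range (-0.12 ± 0.15, 95% interval -0.45 to 0.21, adjusted p = 0.795). The interval does not reach a fall as large as the rise seen with Dex in culture, which was measured in other cells under another treatment. Nr3c1 mRNA was still at 6.76 to 10.2 CPM in the cKO libraries, which also held myeloid RNA. The interval therefore does not bound the effect in T cells without the receptor. Of the 34 members 0 were called by edgeR, DESeq2 or limma voom, as edgeR called 0 of 10597 genes (0.0%), with 870 genes and 1 member, Dnajb9, at an unadjusted p below 0.05. Dnajb9 was at 11.8, 9.73, 10.6, 7.17 and 16.8 CPM in WT and 13.5, 14.5, 17.4 and 19.2 CPM in cKO (0.54 ± 0.22, adjusted p = 0.58). Only WT replicate 5 reached into the cKO values. Estimates were below 0 for 25 of 34 members, with a median of -0.12 against -0.00 over all genes.

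Here too the members varied together among WT libraries, and the myeloid and Th17 marker sums were lowest where many members were highest. WT replicates 3 and 4 were the highest 2 of the 5 for 19 of 34 members (55.9%), against 20.6% of all genes tested, a count made after their values were seen. The myeloid sum over 19 genes was 11214 CPM, 7755 CPM, 4819 CPM, 6148 CPM and 12536 CPM in WT replicates 1 to 5, so replicates 3 and 4 had the lowest. In cKO it was 10008 CPM, 8592 CPM, 12649 CPM and 12385 CPM. The Th17 marker sum was 118.5, 80.7, 42.8, 14.6 and 88.3 CPM in WT replicates 1 to 5, so replicates 3 and 4 had the lowest here as well. In cKO the Th17 sum was 68.2 to 96.2 CPM, and its part in the members' values was not tested. Repeat-like predicted genes took 16.3%, 43.2%, 30%, 34.2% and 51.6% of the counts in WT replicates 1 to 5 and 19% to 55.7% in cKO. Whether libraries rich in them differ in other ways was not tested. Asns was at 14.1, 28.2, 41.4, 36.9 and 9.82 CPM in WT and 13.8, 25.1, 17.8 and 15.7 CPM in cKO (-0.52 ± 0.38, adjusted p = 0.644). Its highest values stood in the WT libraries with the lowest myeloid sums, and its lowest in the one with the highest. Ppp1r15a stood the other way, with 112.9, 68.7, 71.4, 64.0 and 153.5 CPM in WT and 114.9, 89.6, 131.6 and 120.8 CPM in cKO (0.28 ± 0.26, adjusted p = 0.708). With the summed myeloid markers as a covariate the median of the 33 other members was -0.01 and Xbp1 was at 0.08. Without WT replicates 3 and 4 these values were 0.00 and 0.05, and 0 members were called each time. Those replicates were picked for their high member values, so the upward move without them follows from the choice. They also had the lowest myeloid sums, so the covariate fit is not separate from that choice. The part of myeloid cells in the members' values was not tested further. All 19 myeloid markers had estimates above 0, with a median of 0.33 and 0 called, and all 14 cytosolic heat shock genes had estimates below 0, with a median of -0.39 and 0 called. The 17 tested Atf4 targets of amino acid transport and synthesis had 3 estimates above 0, a median of -0.44 and 0 called.

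**Figure D5:**
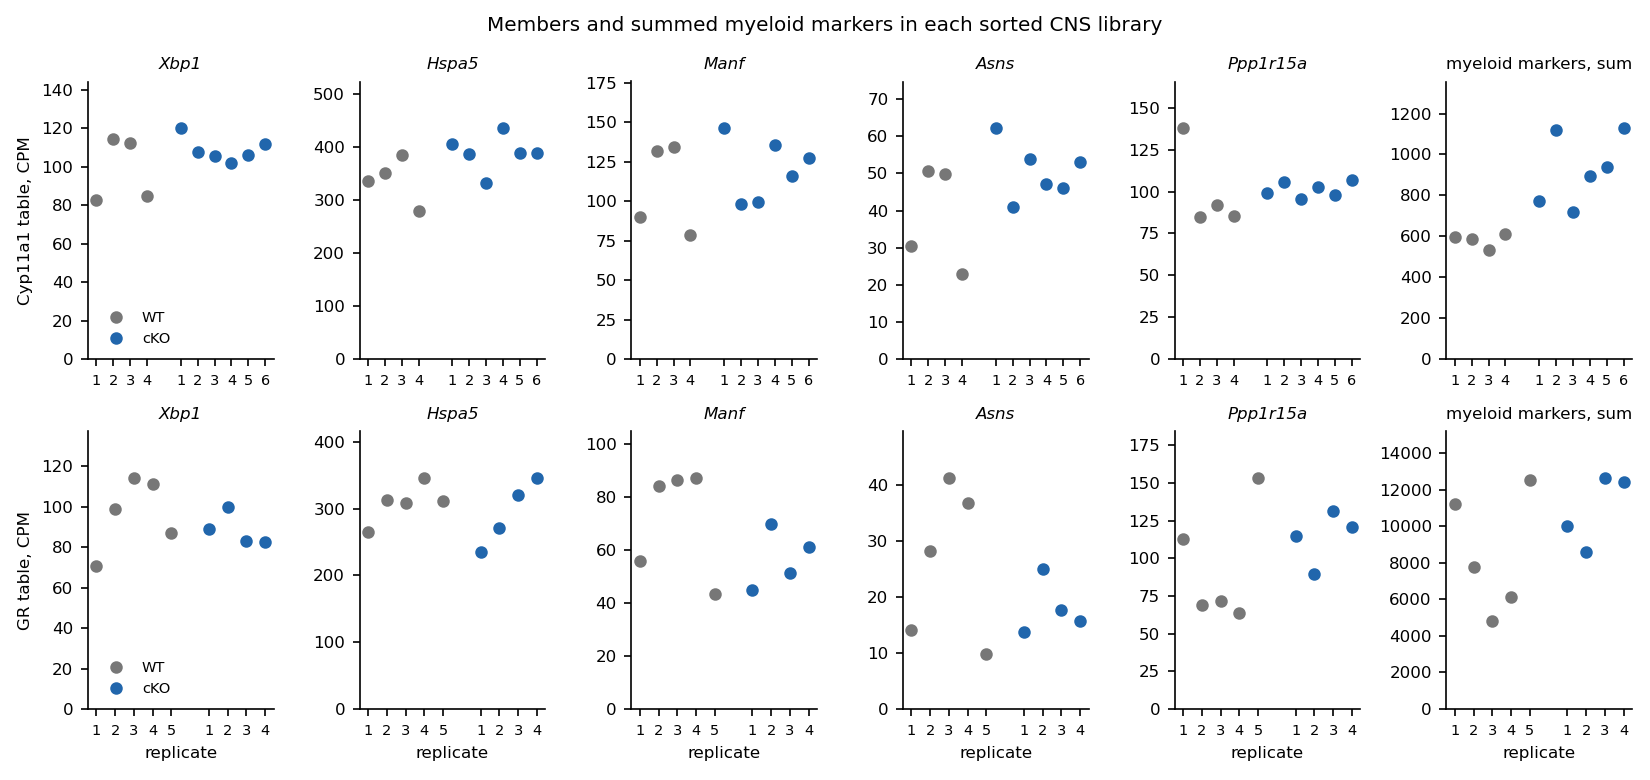
Levels of Xbp1, Hspa5, Manf, Asns and Ppp1r15a and the summed level of 19 myeloid markers in each CNS library, in CPM on axes that start at 0, for the Cyp11a1 table (top) and the GR table (bottom). Dots are libraries, numbered by replicate within WT (grey) and cKO (blue). In the GR table, WT replicates 3 and 4 have the highest Asns, 41.4 and 36.9 CPM, and the lowest myeloid sums.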

How the data were processed

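Polyadenylated RNA of 31 libraries was amplified by a modified SMART-Seq2 protocol, which keeps no strand information, and sequenced in read pairs, per the labels' protocols. The deposited values are whole-number counts per gene, not normalised, in 3 tables of 31053 symbols. RSEM 1.3.3 and the build mm10 are named in the submitters' processing notes, and the annotation used for counting is not given in the sources used here. Each column was matched to its library by label, 0 columns were left without one, and 0 rows named no gene. Pairs of replicates differed by 2.79 to 142 times counting noise (chi-square per degree of freedom), so none was counted as a duplicate.

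Each table was fitted alone in R 4.3.3 with edgeR 4.0.16 (filterByExpr, TMM scaling, robust quasi-likelihood test, Benjamini-Hochberg adjustment over all genes tested, threshold 0.05). The 4 in vitro groups shared 1 fit. Called means past that threshold. DESeq2 1.42.0, limma 3.58.1 (voom with sample weights), other scalings and filters, a replicate block, a myeloid covariate in the CNS tables and leaving out each library were the alternatives. The fit was tested on simulated data. TPM were computed from the counts and the summed exon lengths of GENCODE M21. Promoter sequences are from RefSeq (GRCm38.p6) and the Xbp1 transcript from GENCODE M21. Floors and counting intervals cover counting error only, since reads carry no molecular identifiers.

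The members and the gene lists were chosen with earlier results of these data known. All 34 members are described by role. Values per library were planned for Xbp1, Atf4, Ddit3, Hspa5 and members called in TGF-β1 plus Dex against TGF-β1. The other genes given by library (such as Ern1, Syvn1, Asns, Sec61b, Hsp90b1 and Pdia6) were chosen after their values were seen.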

Additional observations from a re-analysis of the deposited data

Results flagged for a closer look

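Among 136 sets of values (a member in a group of at least 4 CNS libraries), 7 had 1 library far from the others by Dixon's criterion, where chance gives about 1 in 20. In Cyp11a1 cKO, Dnajb11 was at 36.8 CPM in replicate 6 against 61.3 to 75.4 CPM in the others, and Trib3 was at 16.8 CPM in the same library against 4.51 to 7.1 CPM. Sec61b was at 338 CPM in replicate 1 of that group against 244 to 279 CPM. Ssr3 was at 43.6 CPM in its replicate 2 against 52.1 to 56.8 CPM. In Cyp11a1 WT, Ppp1r15a was at 138 CPM in replicate 1 against 84.6 to 91.9 CPM. In GR WT, Eif2ak3 was at 1.27 CPM in replicate 1 against 2.6 to 3.07 CPM. In GR cKO, Sel1l was at 26.1 CPM in replicate 3 against 18.1 to 19.2 CPM. None of these 7 genes was called between the genotypes of its table.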

How the results depend on the processing

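Xbp1 kept its call in TGF-β1 plus Dex against TGF-β1 in all 21 alternatives, between 0.54 and 0.58 in log2, and the other 33 members kept 0 calls. No alternative reversed a called value. The number of members called in TGF-β1 plus Dex against Ctrl, 4 as reported, was 2 to 4 when single libraries were left out and 3 to 6 under the other settings. Pdia6 lost its call in 17 of 21 alternatives (adjusted p up to 0.177), Hsp90b1 in 5 of 21 (up to 0.134) and Sec61b in 0. The counts of the other 7 comparisons did not move. Deviations of same-numbered libraries were weakly correlated, at -0.0135 to 0.0731 in culture (mostly above 0), -0.148 to -0.0484 in the Cyp11a1 table and -0.245 to 0.14 in the GR table. The numbers were not taken as pairs in the main fit. These values do not settle whether a number marks a shared culture or batch. With the replicate number as a block, members called were 1 in TGF-β1 plus Dex against TGF-β1, 3 in TGF-β1 plus Dex against Ctrl, 1 in Dex against Ctrl and 0 in the other 5 comparisons. Over all genes, the number called ranged over the alternatives from 22 (only the 2 groups fitted) to 94 (DESeq2) in TGF-β1 plus Dex against TGF-β1 (55 as reported), from 0 (myeloid covariate) to 63 (DESeq2) in Cyp11a1 cKO against WT (18), from 0 to 3 in GR cKO against WT (0) and from 0 to 6 in the interaction (0). It ranged from 219 to 362 in TGF-β1 against Ctrl (340), 425 to 666 in TGF-β1 plus Dex against Ctrl (646), 152 to 280 in TGF-β1 plus Dex against Dex (271) and 78 to 224 in Dex against Ctrl (189), lowest with a library left out. Depth limits Ern1, Atf6, Eif2ak3, Dnajb9 and Chac1, with at most 30 counts in any cultured library. The alternatives that leave out 2 WT libraries at once were chosen after seeing the data, by the members' own values, so nothing is read from them.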
